A study of Mus musculus with 18 samples.

Results

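The genes described here encode the proteins of the mitochondrial ribosome. They were taken as every array probe whose current gene symbol begins with Mrpl or Mrps followed by a number, which gave 74 genes, 47 of the large subunit (Mrpl) and 27 of the small subunit (Mrps), among 14422 named genes. They are read by 114 of the 45281 probes on the Illumina mouse arrays, 70 for the large and 44 for the small subunit, and 25 genes have more than 1 probe. Mrpl57 and Mrpl58 are annotated on the arrays under the older symbols Mrp63 and Ict1. Mrpl41 and Mrps36 had no named probe and were not analysed here.

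The study followed male C57BL/6J mice, whose strain is spelled C56BL/6J in 1 label field, through 16 weeks on 1 of 3 diets. All mice arrived at 4 weeks of age, were housed singly and ate an AIN-76 semi-purified diet for 1 week before they were assigned. In the LU group (13 mice) luteolin, a plant flavone, made up 0.005% by weight of a high-fat food; the HFD group (13) received the same food, with 20% fat and 1% cholesterol, without luteolin; and the ND group (10) received the normal diet. Liver and adipose tissue were each hybridised on 3 arrays per diet, in 6 groups and 18 arrays, so that luteolin was tested only on top of the high-fat diet, at a single dose. The labels do not say from which depot the adipose tissue came or whether each array stands for another mouse, so the p-values below measure the spread between these arrays, which may be partly technical.

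The mitochondrial ribosome translates the few messages of the mitochondrial genome, all of which encode membrane subunits of the respiratory chain and ATP synthase. Its RNAs are transcribed in the mitochondrion, whereas every one of its proteins is encoded in the nucleus, made in the cytosol and imported, so its assembly needs both genomes. The small subunit holds the decoding centre, where messenger and transfer RNA meet, and the large subunit joins the amino acids. Fat and liver differ widely in mitochondrial content, and mutations in several mitoribosomal protein genes cause oxidative phosphorylation deficiency in human patients.

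Liver arrays detected 15464 to 16998 probes each, at a median signal between 150 and 159.7, and fat arrays detected 19113 to 19852, at a median signal between 193.5 and 215.8. Arrays of 1 group correlated with each other at 0.9935 or more in liver and 0.992 or more in fat. Levels are given as log2 of background-corrected, quantile-normalized intensity, and differences are on the same log2 scale, so a difference of 1 is a doubling. The tissues matched their labels. Alb, the serum albumin gene, lay between 8.91 and 9.77 in liver and was not detected in fat, and the adipocyte genes Adipoq (15.73 to 15.96 in fat) and Plin1 (11.09 to 11.66 in fat) were not detected in liver; Cd68 had no named probe. A gene was tested where its probe was detected on all 3 arrays of at least 1 group. That held for 69 members in liver (43 large, 26 small), of 8937 genes tested there, and for 71 in fat (45 large, 26 small), of 10240. Mrpl32, Mrpl45 and Mrps14 passed in neither tissue, and Mrpl13 and Mrpl39 passed in fat only.

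In fat, more mitoribosomal protein messages fell than rose on the high-fat diet relative to the normal diet. Of the 71 members tested, 26 fell and 2 rose at an adjusted p of 0.05 (limma, Benjamini-Hochberg over all genes), against 23.9% of all genes lower and 21.5% higher. In the large subunit 16 of 45 fell and 2 rose, with a median difference of -0.12, and in the small subunit 10 of 26 fell and 0 rose (0 also at an unadjusted p of 0.05), with a median of -0.15, beside a median of -0.03 over all genes. Whether the subunits differed was not tested. Before any test, 58 of the 71 differences lay below 0, and the HFD arrays lay wholly below the ND arrays for 32 members and wholly above for 2, where 28.4% and 24.6% of all genes did so. The shift was small on each array. As a median deviation of the members from their own mean over the 9 fat arrays, the large subunit stood at -0.09, -0.04 and -0.06 on HFD arrays, against 0.06, -0.03 and 0.09 on ND arrays, and the small subunit at -0.13, -0.07 and -0.12 on HFD arrays, against 0.07, 0.04 and 0.12 on ND arrays. The HFD arrays were the lowest of the 9 for both subunits, although 1 ND array lay just above them for the large subunit.

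**Figure D1:**
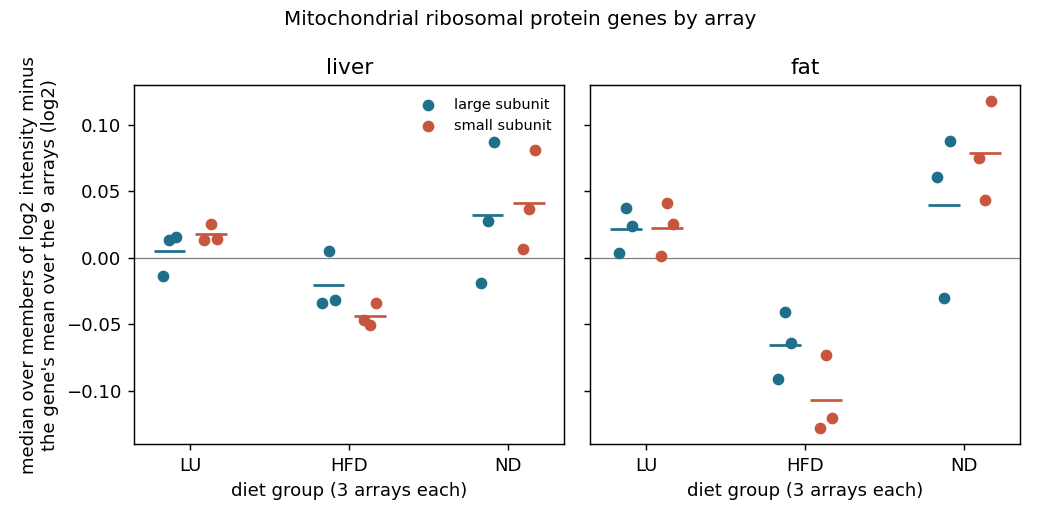
Median deviation of mitoribosomal protein genes from their own mean over the 9 arrays of a tissue (log2), for the large and small subunit, with 1 point per array and a bar at the group mean in the LU, HFD and ND groups of liver and fat. The HFD fat arrays lie between -0.13 and -0.04, below all other fat arrays for each subunit.

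Of the 6 largest decreases 5 were of genes with small-subunit symbols. In each comparison of groups, the largest changes named were taken from members past the threshold whose arrays do not overlap. The lack of overlap in these genes thus comes with their choice. Mrps5 (probe ILMN_2780177), the homolog of bacterial S5 and a gene whose expression has been associated with lifespan across mouse strains, had levels of 8.50, 8.51 and 8.40 on HFD arrays, against 9.08, 9.43 and 9.05 on ND arrays. The lowest ND array thus stood well above the highest HFD array, and Mrps5 fell by 0.72 (SE 0.11, adjusted p = 0.00059, n = 3 per group). Mrps35 (ILMN_1258993), a protein that the bacterial ribosome lacks, read 9.75, 9.74 and 9.74 on HFD arrays, against 10.29, 10.37 and 10.27 on ND arrays. Its arrays were nearly identical within a diet and far apart between diets, a decrease of 0.57 (SE 0.06, adjusted p = 4.48e-05). Mrps18a (ILMN_2717916), 1 of 3 mammalian homologs of bacterial S18, read 10.61, 10.49 and 10.51 on HFD arrays, against 11.01, 11.11 and 11.07 on ND arrays. These arrays also did not overlap, and Mrps18a fell by 0.53 (SE 0.07, adjusted p = 0.00033). Its relatives Mrps18b (-0.05, adjusted p = 0.617) and Mrps18c (-0.03, adjusted p = 0.71) did not pass the test in fat.

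Mrps30 (ILMN_1225936), a protein particular to mitochondria, read 11.78, 11.82 and 11.85 on HFD arrays, against 12.40, 12.25 and 12.29 on ND arrays. All HFD arrays were below all ND arrays, a decrease of 0.50 (SE 0.06, adjusted p = 0.000178). For Mrps15 (ILMN_1224268), the S15 homolog, the levels were 9.07, 9.31 and 9.38 on HFD arrays, against 9.85, 9.67 and 9.73 on ND arrays. The groups stayed apart although the HFD arrays were more scattered, and Mrps15 fell by 0.50 (SE 0.10, adjusted p = 0.00327), with a difference of -0.35 at its other probe. In the large subunit Mrpl9 (ILMN_2679770), the L9 homolog, led with 10.82, 10.78 and 10.93 on HFD arrays, against 11.24, 11.53 and 11.39 on ND arrays. It fell by 0.54 (SE 0.08, adjusted p = 0.000584) without overlap, and its other probe gave -0.67. The remaining 20 members that fell did so by 0.17 to 0.49.

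Mrps18a and Mrps30 carry small-subunit symbols but lie in the large subunit in mammalian ribosome structures. Counted there, 18 of 47 large-subunit members fell (median -0.13) and 8 of 24 small-subunit members did (median -0.14), so the medians of the subunits in fat were almost equal. The 2 members that rose were near the threshold. Mrpl54 read 11.77, 11.85 and 11.85 on HFD arrays, against 11.67, 11.40 and 11.65 on ND arrays (difference 0.25, adjusted p = 0.0454), and Mrpl33 rose by 0.17 (adjusted p = 0.0345). Leaving out 1 array of the fit ended the call of Mrpl54 in 6 of 9 cases and that of Mrpl33 in 8 of 9, while the 6 leading decreases kept their call each time; the count of decreases then ranged from 20 to 28.

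**Figure D2:**
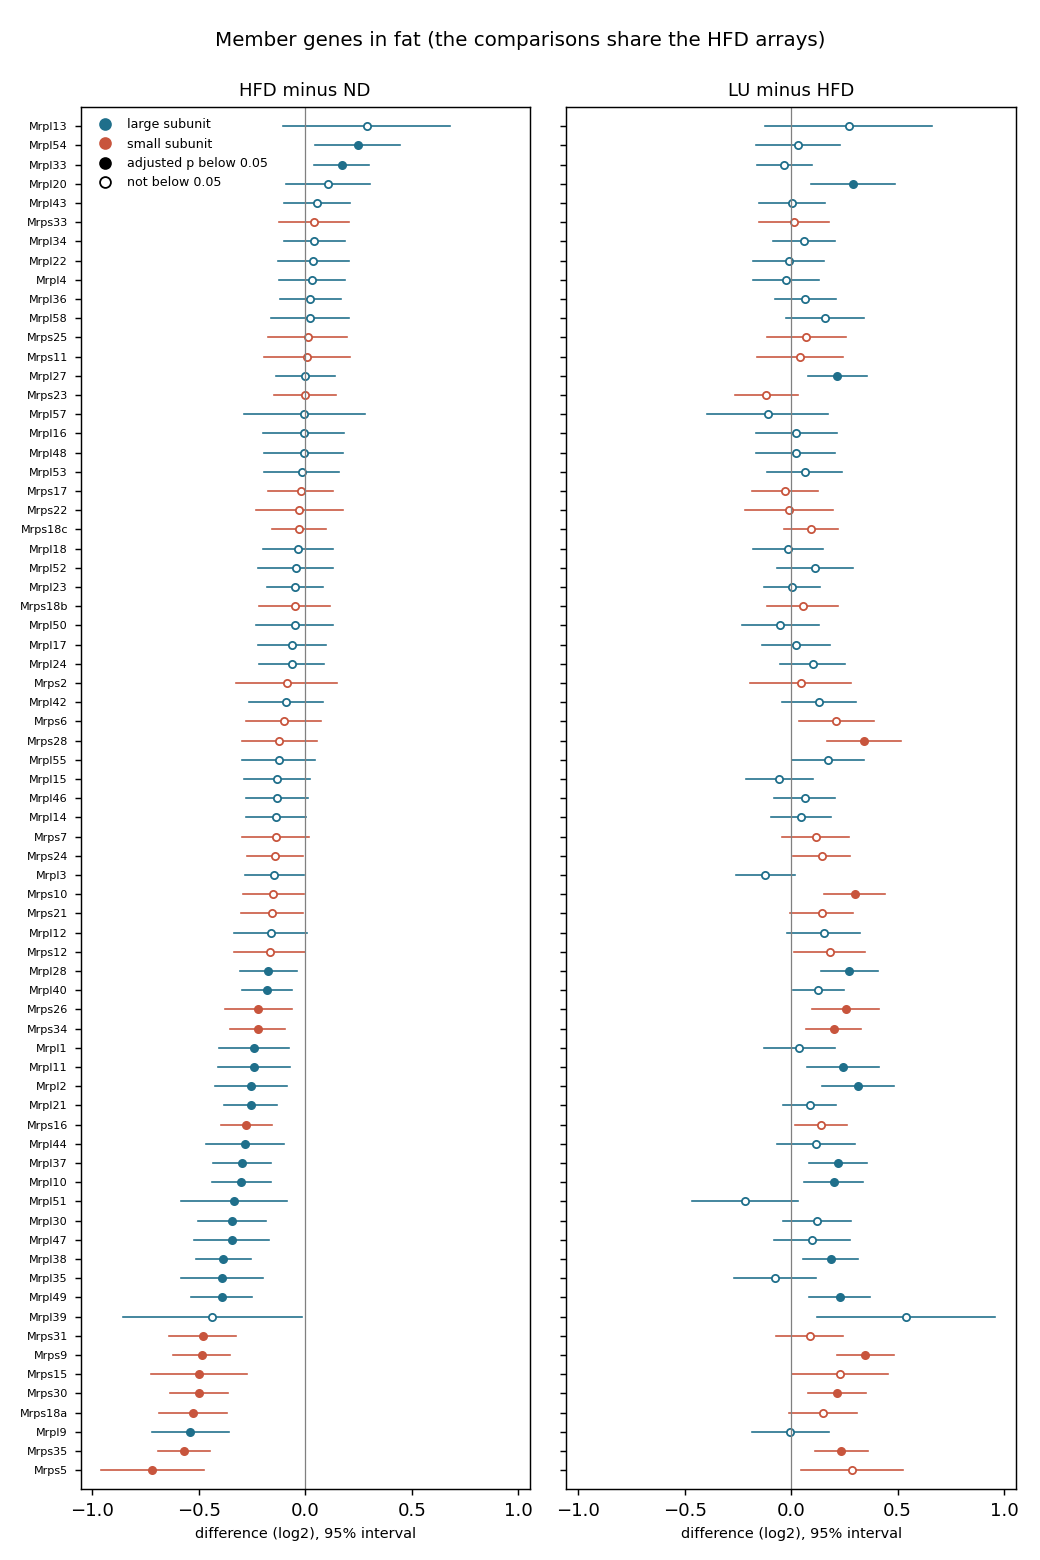
Differences (log2) of all mitoribosomal protein genes tested in fat, HFD minus ND and LU minus HFD, with 95% intervals, coloured by subunit and filled where the adjusted p was below 0.05. In HFD minus ND 26 genes fell and 2 rose, and in LU minus HFD 16 rose and 0 fell; both comparisons use the same 3 HFD arrays.

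Adipose tissue is a mixture of cells, and in such bulk samples fewer cells of a type and less RNA per cell cannot be told apart. Of 12 macrophage markers 11 were tested in fat, and all but Cd68, which had no named probe, were detected; 9 were higher and 1 lower in HFD fat, and their summed linear intensity was 83280 to 91700 on HFD arrays, against 38180 to 45130 on ND arrays. Of 12 adipocyte markers 11 were tested, of which 8 were lower and 1 higher, with overlapping sums of 274900 to 286400 on HFD arrays and 283000 to 293000 on ND arrays. Fibroblast and mesothelial markers (9 of 10 tested) gave 3 higher and 3 lower, with sums of 73060 to 75750 on HFD arrays and 61790 to 70840 on ND arrays, and endothelial markers (9 of 10 tested) 1 higher and 1 lower, with sums of 33080 to 38420 on HFD arrays and 37960 to 42210 on ND arrays. Of 10 T, NK and B cell markers 3 were tested and none passed, although 2 were higher at an unadjusted p of 0.05 (limma). Of 12 hepatocyte markers 6, Alb among them, were not detected in fat on any array, and of the 2 tested 1 was lower, with sums of 19950 to 25020 on HFD arrays and 59940 to 60110 on ND arrays. The part of these shifts in the mitoribosomal differences was not tested.

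Promoters of the members were read for 3 motifs, because the genes of the mitochondrial translation system are known targets of nuclear respiratory factor 1 (NRF1), of the ETS-family factor GABP and of YY1. RefSeq promoter windows of 300 bases on GRCm38.p6, 250 before and 50 after an annotated start, matched 66 of the 74 members, in 72 windows. The letters searched, on both strands, were GCGCATGCG for NRF1, CCGGAAG for ETS factors and AAGATGGC for YY1, and no matches of different motifs overlapped in any member window. ETS letters were in 34.7% of member windows, against 8.86% of all 32851 windows, YY1 letters in 15.3%, against 2.75%, and NRF1 letters in 9.72%, against 1.75%. These 32851 windows were not limited to genes expressed like the members, so whether the excess is particular to the members was not tested. Of the 26 windows of members that fell in HFD fat, 5 held ETS, 4 YY1 and 2 NRF1 letters. Of the 43 windows of members tested that did not fall, 20 held ETS, 6 YY1 and 4 NRF1 letters. Whether these shares differed was not tested. Windows are shown for 3 members that fell in HFD fat and hold a match, 1 with ETS and YY1, 1 with NRF1 and 1 with YY1 letters; matches are in capitals and each window is written along its gene.
Mrps18a, chr17:46110754-46111053, plus strand: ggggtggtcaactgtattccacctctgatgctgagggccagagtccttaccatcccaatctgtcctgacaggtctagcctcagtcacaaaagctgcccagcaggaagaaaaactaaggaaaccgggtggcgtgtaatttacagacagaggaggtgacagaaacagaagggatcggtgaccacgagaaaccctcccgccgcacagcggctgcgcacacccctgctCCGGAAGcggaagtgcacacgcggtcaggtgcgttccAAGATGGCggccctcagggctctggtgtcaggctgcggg
Mrpl9, chr3:94443086-94443385, plus strand: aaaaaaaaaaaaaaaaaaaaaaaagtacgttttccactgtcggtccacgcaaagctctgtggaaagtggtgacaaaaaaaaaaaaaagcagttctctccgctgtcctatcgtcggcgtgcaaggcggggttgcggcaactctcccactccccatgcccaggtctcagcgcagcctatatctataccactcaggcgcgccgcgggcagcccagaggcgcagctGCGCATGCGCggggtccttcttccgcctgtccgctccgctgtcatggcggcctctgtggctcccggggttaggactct
Mrpl49, chr19:6057706-6058005, minus strand: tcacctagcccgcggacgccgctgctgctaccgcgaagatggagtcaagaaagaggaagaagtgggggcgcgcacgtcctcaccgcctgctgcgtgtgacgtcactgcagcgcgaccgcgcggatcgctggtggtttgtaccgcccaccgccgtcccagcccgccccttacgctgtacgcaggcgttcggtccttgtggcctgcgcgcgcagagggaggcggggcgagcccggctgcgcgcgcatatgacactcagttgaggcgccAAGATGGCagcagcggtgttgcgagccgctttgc
With the annotated start as 0, the Mrps18a matches begin at -26 (ETS) and 11 (YY1), the Mrpl9 match at -28, and the Mrpl49 match at 16. The windows of Mrps5, Mrps15 and Mrps30 hold none of the 3 motifs.

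With luteolin added to the high-fat diet, several members were higher in fat than on the high-fat diet alone. Against HFD fat, 16 of 71 members rose in LU fat and 0 fell (limma; at an unadjusted p of 0.05, 25 were higher and 0 lower), where 16.3% of all genes rose and 15.5% fell. The large subunit had 9 of 45 higher (median 0.07) and the small subunit 7 of 26 (median 0.14), beside a median of 0.02 over all genes. This comparison shares its HFD arrays with HFD against ND, so opposite signs in the 2 are partly built in, and the values of each are only set side by side here. The share of members that rose in the large subunit was 20.0%, near the share over all genes.

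Mrps9, the S9 homolog, had levels of 11.10, 11.13 and 11.08 on LU arrays and 10.69, 10.77 and 10.81 on HFD arrays, with 11.29, 11.20 and 11.23 on ND arrays. The LU arrays lay between the other diets without overlap, and Mrps9 rose by 0.35 over HFD (SE 0.06, adjusted p = 0.00294). Mrps28, another small-subunit protein, read 11.71, 11.87 and 11.70 on LU arrays and 11.33, 11.49 and 11.43 on HFD arrays. Here the LU arrays were also above all ND arrays (11.57, 11.43 and 11.61), and the rise over HFD was 0.34 (SE 0.08, adjusted p = 0.00964). Mrpl2, the homolog of L2 near the peptidyl-transferase centre, read 11.64, 11.72 and 11.67 on LU arrays, against 11.44, 11.33 and 11.33 on HFD arrays. Every LU array exceeded every HFD array, a rise of 0.31 (SE 0.07, adjusted p = 0.0123). Mrps10 rose by 0.30 (adjusted p = 0.00754; 0.07 and 0.24 at its other probes), Mrpl28 by 0.27 (adjusted p = 0.00839) and Mrpl20 by 0.29 (adjusted p = 0.0311), the last losing its call in 5 of 9 fits without 1 array. The other 10 members that rose did so by 0.19 to 0.26.

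The count of rises depended on every array of the 2 groups. It was 8, 6 and 8 without LU fat array 1, 2 or 3, and 6, 10 and 9 without HFD fat array 1, 2 or 3, whereas Mrps9, Mrps28, Mrpl2, Mrps10 and Mrpl28 kept their call in all of these fits. In the same comparison 10 of 11 macrophage markers fell, with summed intensities of 60350 to 66260 on LU arrays, against 83280 to 91700 on HFD arrays, and 6 of 11 adipocyte markers rose, with sums of 295700 to 298300 on LU arrays, against 274900 to 286400 on HFD arrays. Fibroblast and mesothelial markers had 5 of 9 lower, T, NK and B cell markers 1 of 3 lower and endothelial markers 1 of 9 lower. Hepatocyte markers had 2 of the 2 tested higher, with sums of 35160 to 43150 on LU arrays, against 19950 to 25020 on HFD arrays. Their part in the rises was not tested.

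The members that had fallen most on the high-fat diet are given here with their levels on luteolin. They were chosen for low HFD levels against ND, and that choice favours LU levels above the same HFD arrays and below ND. Mrps35 read 9.97, 9.99 and 9.96 on LU arrays, above all HFD arrays and below all ND arrays given above, 0.24 over HFD and -0.33 against ND, both past the threshold. Mrps30 stood likewise at 12.05, 12.02 and 12.02, 0.22 over HFD and -0.28 against ND. Mrps5 read 8.62, 8.83 and 8.82 on LU arrays and Mrps15 read 9.64, 9.42 and 9.39, so all 4 genes had every LU array above every HFD array and below every ND array. The differences from HFD were 0.29 for Mrps5 (adjusted p = 0.0686) and 0.23 for Mrps15 (adjusted p = 0.111), neither past the threshold, and those from ND were -0.43 (adjusted p = 0.0141) and -0.27 (adjusted p = 0.0662), of which the first passed. Mrps15 had 0.50 over HFD and 0.16 over ND at its other probe. Mrpl9 read 10.86, 10.85 and 10.81 on LU arrays, within the HFD range and below every ND array. Its difference from HFD was -0.00 and from ND -0.54 (adjusted p = 0.00119). Mrps18a, at 10.58, 10.78 and 10.69, overlapped the HFD arrays. It differed by 0.15 from HFD, which did not pass, and by -0.38 from ND (adjusted p = 0.00385).

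**Figure D3:**
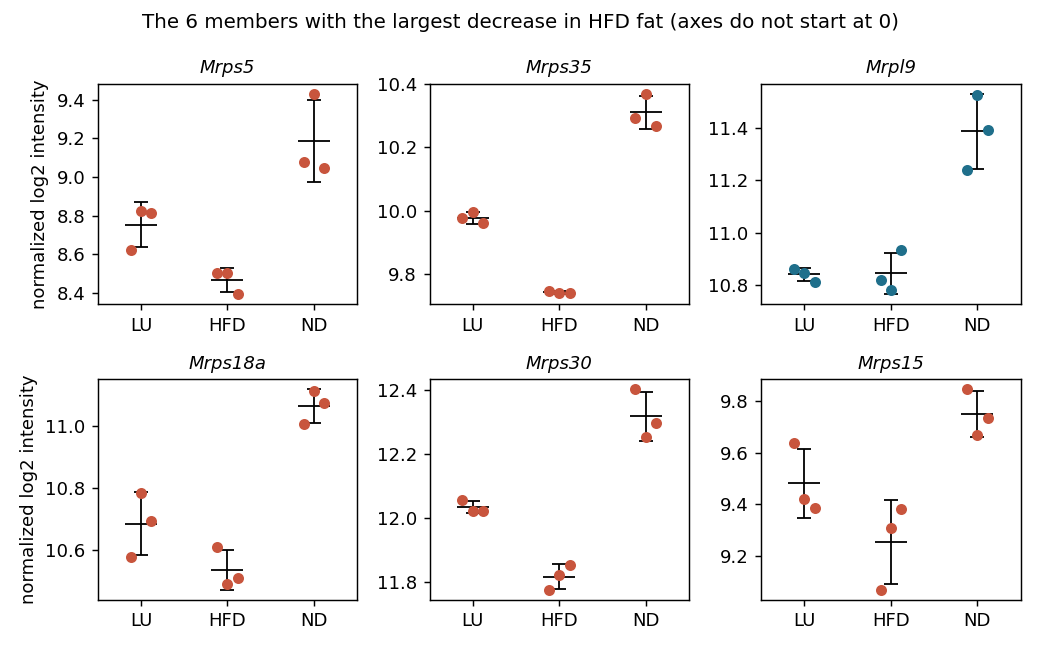
Levels (log2 normalized intensity) in fat of the 6 mitoribosomal protein genes with the largest decrease on the high-fat diet, with 1 point per array and the mean and SD of the LU, HFD and ND groups; the axes do not start at 0. For Mrps5, Mrps35, Mrpl9, Mrps18a, Mrps30 and Mrps15 every HFD array lies below every ND array, which their choice required. The LU arrays of Mrps5, Mrps35, Mrps30 and Mrps15 lie between the HFD and ND arrays.

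Set directly against the normal diet, LU fat had 13 of 71 members lower and 4 higher, where 15.6% of all genes were lower and 17.6% higher; the medians were -0.01 (large) and -0.02 (small). The decreases were led by Mrpl51 (-0.55, adjusted p = 0.00545), whose other probe gave 0.33, followed by Mrpl9, Mrpl35 (-0.46, adjusted p = 0.00362), Mrps5 and Mrps31 (-0.39, adjusted p = 0.00305). The probes of Mrpl51 thus disagreed in sign. Mrpl20, the L20 homolog, read 12.30, 12.21 and 12.09 on LU arrays, against 11.89, 11.62 and 11.89 on ND arrays. It was higher by 0.40 without overlap (adjusted p = 0.00804) and kept that call in all fits without 1 array. The other rises were of Mrpl13 (0.56, adjusted p = 0.035), Mrpl54 (0.28, adjusted p = 0.0374) and Mrpl27 (0.22, adjusted p = 0.0238), and only 1 member was higher without ND fat array 2, LU fat array 2 or LU fat array 3. Macrophage markers were higher for 7 and lower for 2 of 11 in LU fat against ND, and adipocyte markers higher for 2 and lower for 1 of 11. Fibroblast and mesothelial markers were higher for 2 and lower for 5 of 9. Endothelial markers were lower for 1 of 9, T, NK and B cell markers for 1 of 3 and hepatocyte markers for 1 of 2. The part of these markers was not tested.

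Several members have roles that set them apart whatever their level. Mrpl10, Mrpl11 and Mrpl12 form the stalk of the large subunit and its base, where translation factors dock, and Mrpl12 also binds the mitochondrial RNA polymerase. In fat Mrpl10 read 12.03, 12.04 and 12.10 on HFD arrays, against 12.31, 12.35 and 12.41 on ND arrays, and it fell by 0.30 (SE 0.06, adjusted p = 0.00359), while LU arrays, at 12.18, 12.31 and 12.27, were 0.20 above HFD (adjusted p = 0.0352), a call lost in 5 of 9 fits without 1 array and under cyclic loess, median scaling and no detection filter. The HFD arrays were the lowest of the 9. Mrpl11 fell by 0.24 on HFD (adjusted p = 0.026) and rose by 0.24 with luteolin (adjusted p = 0.035), calls lost in 4 and 5 of 9 fits without 1 array. Mrpl12 had differences of -0.16 and 0.15 and passed in neither comparison. Mrps12, part of the decoding centre, was alike, with -0.17 and 0.18, neither past the threshold.

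Mrps7, Mrps16, Mrps22, Mrps34, Mrpl3 and Mrpl44 are genes whose mutation causes combined oxidative phosphorylation deficiency in human patients. In HFD fat Mrps16 read 10.47, 10.53 and 10.50, against 10.77, 10.80 and 10.76 in ND fat. The 3 arrays of a diet agreed closely and the groups were apart by -0.28 (SE 0.05, adjusted p = 0.00267). Mrps34 fell by 0.22 on HFD (adjusted p = 0.0116) and rose by 0.20 with luteolin (adjusted p = 0.0271), the rise losing its call in 6 of 9 fits without 1 array. Mrpl44 fell by 0.28 on HFD (adjusted p = 0.0191), a call lost in 3 of 9 fits without 1 array. Mrps22 (-0.03), Mrps7 (-0.14) and Mrpl3 (-0.15) did not pass for HFD against ND in fat, and with luteolin Mrpl3 was at -0.12 against HFD and -0.27 against ND, the last past the threshold (adjusted p = 0.0101). For HFD against ND in fat, 3 of these 6 genes thus passed as lower and 3 did not pass.

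In liver the high-fat diet changed few members. Of 69 tested, 1 rose and 7 fell for HFD against ND, where 17.9% of all genes rose and 12.4% fell; the large subunit had 0 higher (2 at an unadjusted p of 0.05, limma) and 3 lower of 43 (median -0.04), and the small subunit 1 higher and 4 lower of 26 (median -0.07), beside 0.00 for all genes. Mrpl15, the L15 homolog, read 11.30, 11.27 and 11.41 on HFD arrays, against 11.69, 11.77 and 11.72 on ND arrays. It fell by 0.40 (adjusted p = 0.00256) without overlap, and its 4 other tested probes gave -1.39, -0.33, -0.47 and -0.44. Mrps25, which has no bacterial counterpart, read 7.61, 7.46 and 7.47 on HFD arrays, against 7.14, 7.11 and 7.07 on ND arrays. Low as these levels are, the groups were apart by 0.41 (SE 0.10, adjusted p = 0.0119), with 0.48 at the other probe.

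Mrpl34 fell by 0.26 in HFD liver (adjusted p = 0.0115), and Mrpl47, Mrps22, Mrps11, Mrps5 and Mrps9 by 0.20 to 0.32. For Mrps22 the levels were 10.06, 10.01 and 10.02 on HFD arrays, against 10.12, 10.36 and 10.42 on ND arrays (adjusted p = 0.0406), a call lost in 8 of 9 fits without 1 array. The count of decreases was 2 without HFD liver array 1 or 2, 3 without HFD liver array 3 or ND liver array 3, and 4 without ND liver array 2; Mrpl15, Mrps25 and Mrpl34 passed in all of these. Scaling arrays by their median in place of quantile normalization, which put the median of all genes at 0.12, gave 3 members higher and 1 lower. Of 10 hepatocyte markers tested 1 was higher and 9 did not pass, with summed intensities of 360300 to 373800 on HFD liver arrays, against 343500 to 355200 on ND liver arrays. Macrophage markers, 10 of 12 of them tested, had 7 higher and 1 lower, with sums of 11960 to 13800 on HFD arrays, against 6885 to 7554 on ND arrays. Of 9 endothelial markers 4 were higher, with sums of 8831 to 10070 on HFD and 7041 to 7239 on ND arrays. Of 12 adipocyte markers 5 (Adipoq, Plin1, Lep, Retn and Fabp4) were not detected on any liver array. Of the 5 tested 3 were higher and 1 lower, with sums of 15730 to 19900 on HFD arrays, against 8853 to 10200 on ND arrays. Of 5 fibroblast and mesothelial markers tested 3 were higher, with sums of 15890 to 17650 on HFD arrays, against 11550 to 12890 on ND arrays. Their part in these differences was not tested.

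Luteolin on top of the high-fat diet gave 7 members higher and 8 lower of 69 in liver, where 8.41% and 8.66% of all genes were higher and lower, with medians of 0.03 (large) and 0.04 (small), beside 0.03 over all genes. Mrpl57, a protein particular to mitochondria, read 6.82, 6.60 and 6.40 on LU arrays, against 7.17, 7.25 and 7.16 on HFD arrays. The groups did not overlap, with a difference of -0.59 (adjusted p = 0.0114). Mrpl53 read 10.65, 10.65 and 10.45 on LU arrays, against 10.91, 10.87 and 10.96 on HFD arrays, and fell by 0.33 (adjusted p = 0.0168). Mrps5 moved the other way, with 8.999, 9.084 and 9.117 on LU arrays and 8.759, 8.778 and 8.785 on HFD arrays, a rise of 0.29 (adjusted p = 0.0151). Its LU arrays overlapped the ND arrays (8.979, 8.937 and 9.041). Of the other role and disease genes, Mrpl44 (-0.26) and Mrps12 (-0.25) passed as lower and Mrpl10, Mrpl11, Mrpl12 and Mrps16 did not pass. Leaving out 1 array ended the call of Mrpl44 in 5 of 9 fits and that of Mrps12 in 6. Mrps12 was read by ILMN_1254734 in liver but by ILMN_2777706 in fat and in the fit over both tissues. In that fit its liver means were 12.57 on LU and 12.68 on HFD arrays. The Mrps12 call was also lost with the mean of detected probes.

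These liver counts depended on single arrays. Without LU liver array 1, 2 or 3 there were 3, 1 and 0 members higher and 3, 2 and 1 lower, and without HFD liver array 1, 2 or 3 there were 2, 1 and 2 higher and 2, 3 and 2 lower. Median scaling gave 0 higher (limma) and 6 lower. Mrpl57 passed in every fit that could be made. In the same comparison 7 of 9 endothelial markers were lower, with summed intensities of 6840 to 7036 on LU arrays, against 8831 to 10070 on HFD arrays, while macrophage markers had 1 higher and 1 lower of 10. Of 10 hepatocyte markers 1 was higher and 9 did not pass, with sums of 364100 to 367700 on LU arrays, against 360300 to 373800 on HFD arrays. Adipocyte markers had 1 higher of the 5 tested, with sums of 21710 to 22730 on LU arrays, against 15730 to 19900 on HFD arrays. Adipoq, Plin1, Lep, Retn and Fabp4 were not among them, since no liver array detected them. Fibroblast and mesothelial markers had 1 higher of 5. The part of these markers was not tested.

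Against the normal diet, LU liver had 4 members higher and 13 lower, where 23.7% of all genes were higher and 17.4% lower, with medians of -0.04 (large) and 0.02 (small). Mrpl15 read 11.001, 11.136 and 11.079 on LU arrays, against the 11.69 to 11.77 on ND arrays given above, a decrease of 0.65 (adjusted p = 0.000135), and its 5 tested probes gave differences of -1.56 to -0.48. All of its probes thus moved the same way. Mrpl3 read 10.08, 10.15 and 10.10 on LU arrays, against 10.40, 10.63 and 10.42 on ND arrays, a decrease of 0.37 (adjusted p = 0.0044). Mrpl12, at 12.35, 12.24 and 12.25 on LU arrays and 12.48, 12.67 and 12.52 on ND arrays, fell by 0.28 (adjusted p = 0.0118). In both genes every LU array was below every ND array. Mrps23 (-0.35), Mrpl53 (-0.36), Mrpl44 (-0.30), Mrps22 (-0.30), Mrps12 (-0.26) and Mrpl11 (-0.21) were lower as well. Leaving out 1 array ended the calls of Mrps22 and Mrpl11 in 3 of 9 fits each and that of Mrps12 in 2. Mrpl14, the L14 homolog, read 12.43, 12.50 and 12.48 on LU arrays, against 12.19, 12.11 and 12.23 on ND arrays, and led the rises at 0.29 (adjusted p = 0.00607). Both directions were seen in the large subunit, and without LU liver array 1 there were 2 members higher. In this comparison 7 of 10 macrophage markers were higher and 1 lower, and 3 of 9 endothelial markers lower and 1 higher. Of 10 hepatocyte markers 2 were higher and 1 lower, with sums of 364100 to 367700 on LU arrays, against 343500 to 355200 on ND arrays. Fibroblast and mesothelial markers were higher for 4 of 5, with sums of 16380 to 18270 on LU arrays, against 11550 to 12890 on ND arrays. Adipocyte markers were higher for 2 and lower for 1 of the 5 tested, which leave out the undetected Adipoq, Plin1, Lep, Retn and Fabp4. The adipocyte sums were 21710 to 22730 on LU arrays, against 8853 to 10200 on ND arrays. The part of these markers was not tested.

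The response to the high-fat diet was then compared between tissues, in 1 fit over the 18 arrays in which 71 of 10764 genes tested were members. Among these members Mrpl39 was detected on 0 of 9 liver arrays, Mrpl13 on 3 and Mrps15 on 6. Their liver differences are thus near background, and they are kept in the medians of this fit. The HFD minus ND difference was higher in liver than in fat for 16 members (22.5%) and lower for 1 (1.41%). Of all genes 18.1% were higher and 13.3% lower. The median of this liver minus fat value was 0.09 for the large and 0.20 for the small subunit, beside 0.04 over all genes. For Mrps30 the difference was 0.02 in liver and -0.54 in fat, 0.56 apart (adjusted p = 0.000219), and for Mrpl9 it was -0.03 in liver and -0.57 in fat, 0.54 apart (adjusted p = 0.00302). In both the liver value was near 0. Mrps5 was at -0.20 in liver and -0.74 in fat (0.54 apart, adjusted p = 0.00493), Mrps18a at -0.12 and -0.56 (0.44 apart, adjusted p = 0.00326) and Mrpl10 at 0.00 and -0.34 (0.34 apart, adjusted p = 0.00493). Mrpl34 was the exception, with -0.23 in liver and 0.04 in fat (-0.27 apart, adjusted p = 0.0192), a call lost under median scaling and when only the arrays compared were fitted (highest adjusted p = 0.1115).

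For 6 of 71 members (8.45%) the LU minus HFD difference was lower in liver than in fat, a share near the 7.22% of all genes. It was higher for 0 members (limma, 1 at an unadjusted p of 0.05), where 8.43% of all genes were higher. Mrpl11 was at -0.12 in liver and 0.25 in fat (-0.37 apart, adjusted p = 0.0172), the member that passed in every alternative. Mrpl44, Mrpl53, Mrpl28, Mrpl40 and Mrps25 were -0.40 to -0.24 apart, and each lost its call in 5 to 14 of 18 fits without 1 array. The count was 1 without LU fat array 1, 2 without HFD liver array 1, HFD liver array 2 or HFD fat array 2, and 3 without LU liver array 2, HFD fat array 1 or LU fat array 2. The tissues come from separately deposited tables, so tissue and table cannot be told apart. The labels also do not say whether liver and fat arrays of the same number share a mouse, and this fit treated them as independent. In the same fit the HFD minus ND difference was lower in liver than in fat for 6 of 11 macrophage markers. It was higher for 5 of 11 adipocyte, 5 of 9 endothelial and 3 of 9 fibroblast and mesothelial markers. Of these 11 adipocyte markers 5, Adipoq and Plin1 among them, were not detected on any liver array. The LU minus HFD difference was higher in liver than in fat for 8 of 11 macrophage and 4 of 9 fibroblast and mesothelial markers, and lower for 5 of 9 endothelial and 3 of 11 adipocyte markers. Their part was not tested.

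Levels in the normal-diet groups were also compared between the tissues. Liver had higher levels than fat for 50 of 71 members and lower levels for 14, where 38.2% of all genes were higher and 47.4% lower; 34 of 45 large-subunit members were higher and 5 lower (median 0.46), and 16 of 26 small-subunit members higher and 9 lower (median 0.40), beside -0.14 over all genes. Mrpl12 read 12.71, 12.87 and 12.75 in ND liver, against 10.98, 10.79 and 11.06 in ND fat, a difference of 1.83 (adjusted p = 4.13e-13), and Mrpl15 read 12.00, 12.06 and 12.03 in ND liver, against 10.11, 10.30 and 10.24 in ND fat (1.81; 1.81 to 2.30 over 5 probes). Mrpl47 (1.36), Mrpl18 (1.33), Mrpl34 (1.28) and Mrps2 (1.20) followed. The counts depended on the scaling. With median scaling, which put the median of all genes at -0.61, 27 members were higher and 24 lower, with medians of 0.03 and 0.06 for the large and small subunit. Under it Mrpl11 and Mrpl3 were at -0.49 and -0.32, both above that median of all genes.

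Some members ran strongly the other way. Mrps6, the S6 homolog, read 8.86, 9.26 and 9.21 in ND liver, against 12.91, 12.68 and 12.99 in ND fat, a difference of -3.75 (SE 0.12, adjusted p = 2.77e-14). This was the largest difference between the tissues in size among the members tested. Mrpl20 read 9.55, 9.49 and 9.61 in ND liver, against 11.61, 11.31 and 11.60 in ND fat (-1.96, adjusted p = 2.55e-12). The tissues did not overlap for either gene. Mrps25 was at -1.19, with -1.41 at another probe; its remaining probe was detected on 2 of 9 liver arrays. Mrps15 was detected on 1 of 3 ND liver arrays, so its measured difference of -2.94 is set against a level near background, and its other probe was detected on 0 of 9 liver arrays. Mrpl13 and Mrpl39 were not detected in ND liver and entered this fit only because they passed the filter in fat. That filter favoured a lower value in liver, and both are counted among the 14 lower members. Only bounds can be given for them, set against the lowest signal of a detected probe. Mrpl13 was at least 2.68-fold lower than in ND fat, whereas the bound for Mrpl39 (0.91-fold) shows no decrease. The S18 homologs split, with Mrps18b (1.02) and Mrps18a (0.48) higher in liver and Mrps18c (-0.95) lower. With any 1 array left out, 47 to 51 members were higher and 13 to 15 lower.

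**Figure D4:**
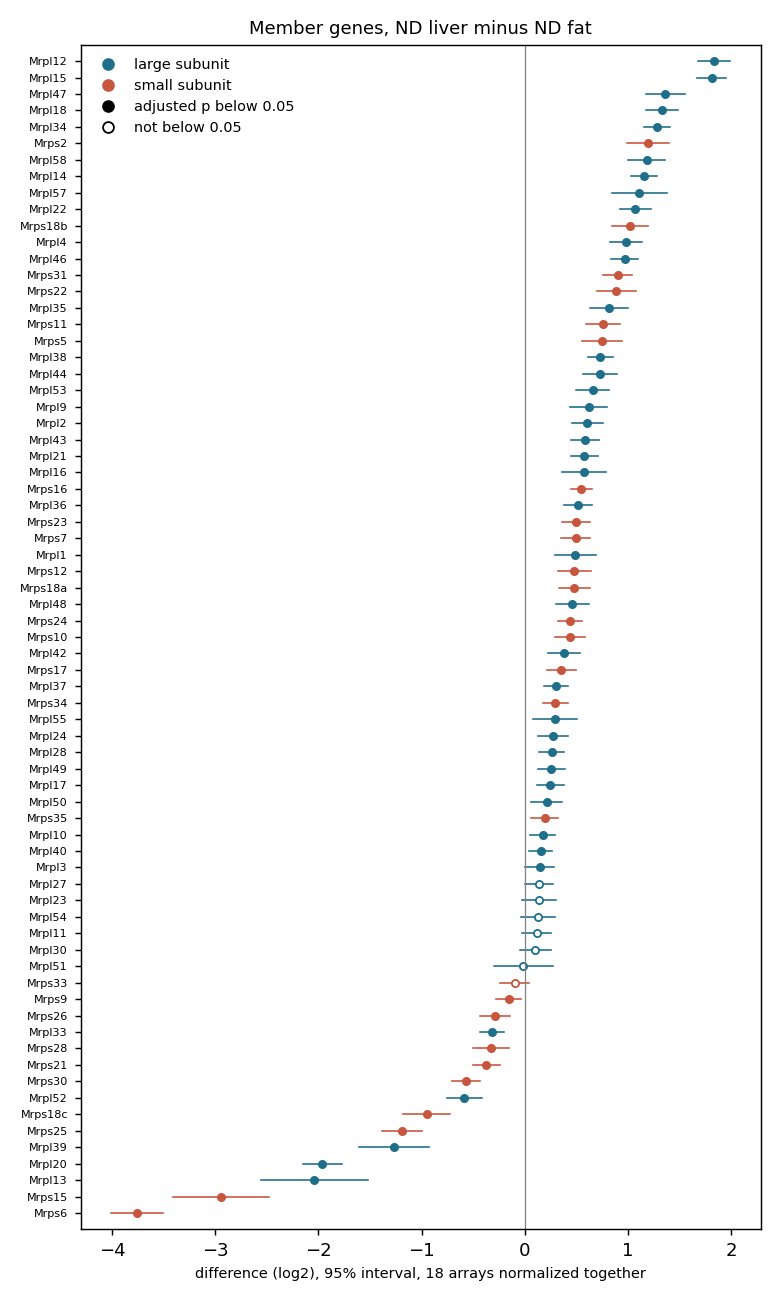
Difference (log2) of each mitoribosomal protein gene between ND liver and ND fat, liver minus fat, with 95% intervals, coloured by subunit and filled where the adjusted p was below 0.05. Of the 71 genes 50 were higher and 14 lower in liver, and Mrps6 lies farthest toward fat; Mrpl13 and Mrpl39 were not detected in ND liver, so their points are measured means and not bounds.

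Among other genes of mitochondrial translation, more also fell than rose in HFD fat, where 23.9% of all genes fell and 21.5% rose. Of 22 mitoribosome assembly factors tested, 10 fell and 0 rose (median -0.25), with Mrm3, an RNA methyltransferase of the large subunit, at -0.57, Ybey, an RNA-processing enzyme, at -0.54 and Ddx28, a helicase, at -0.50. Of 14 translation factors 7 fell and 0 rose (median -0.24), among them Guf1 (-0.48), Lrpprc (-0.37), which stabilises mitochondrial messages, and Mtrf1 (-0.35). Of 16 mitochondrial aminoacyl-tRNA synthetases and amidotransferase subunits 9 fell and 1 rose (median -0.30), led by Pars2 (-0.60), Ears2 (-0.43) and Gatb (-0.42). Of 9 genes of mitochondrial DNA transcription and replication 7 fell and 0 rose (median -0.38), led by Polg2 (-0.70) and Polg (-0.45), the subunits of the mitochondrial DNA polymerase, and Twnk (-0.65), its helicase. Of 4 mitoribosomal proteins with other symbols 1 fell, Dap3 (-0.17).

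The respiratory chain, whose mitochondrially encoded subunits this ribosome makes, had 39 of 65 nuclear-encoded subunits lower and 0 higher in HFD fat (median -0.24), a larger share than the 26 of 71 mitoribosomal genes, though the shares were not tested against each other. The proteins of the cytosolic ribosome had 2 of 50 lower and 7 higher (median 0.06). Ppargc1a, the coactivator that drives mitochondrial gene expression, was at -0.86 and Esrra, its nuclear receptor partner, at 0.28, both past the threshold. For LU against HFD in fat, which shares the HFD arrays, 27 of 65 respiratory chain subunits rose and 0 fell (median 0.19), and 1 of 50 cytosolic ribosomal proteins rose and 7 fell (median -0.04). Ppargc1a was at 0.77 and Ppargc1b at 0.52, both higher, and Gabpa, the DNA-binding subunit of GABP, was at -0.45 and lower.

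In the same comparison, where 16.3% of all genes rose and 15.5% fell, 4 of 22 assembly factors (18.2%) rose and 1 fell, a share of rises near that of all genes (median 0.12; Mtg1 0.35, Rcc1l 0.31, Gtpbp10 -0.37), and 4 of 14 translation factors rose and 0 fell (median 0.16), with Guf1 at 0.73. Of 16 synthetases 6 rose and 0 fell (median 0.17; Aars2 0.49, Gatb 0.46, Vars2 0.35), and of 9 genes of mitochondrial DNA transcription and replication 5 rose and 0 fell (median 0.24; Twnk 0.51, Polg2 0.45, Tfb2m 0.31). These directions in fat were the same under median scaling, cyclic loess and no background correction.

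**Figure D5:**
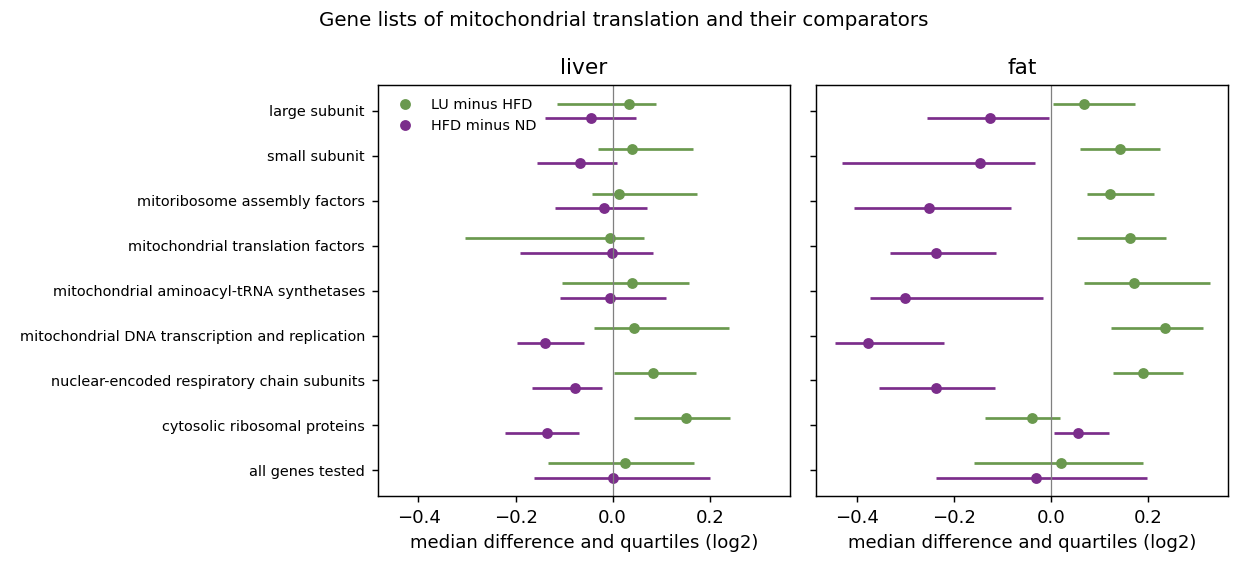
Median difference (log2, point) and quartiles (line) over the tested genes of each list, for LU minus HFD and HFD minus ND in liver and fat, with all genes tested at the bottom. In HFD against ND fat the medians of the large and small subunit are -0.12 and -0.15, beside -0.24 for the respiratory chain and 0.06 for the cytosolic ribosome.

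For HFD against ND in liver, where 12.4% of all genes were lower and 17.9% higher, 7 of 63 respiratory chain subunits (11.1%) were lower and 1 higher (median -0.08), and 9 of 50 cytosolic ribosomal proteins were lower and 0 higher (median -0.13), a median below 0 under each scaling. Ppargc1a was at -0.80 and Esrra at -0.27, both lower. Oxa1l, the insertase that receives proteins from the mitochondrial ribosome, was at -0.27 and Gadd45gip1, a large-subunit protein with another symbol, at -0.47. For LU against HFD, where 8.41% of all genes were higher and 8.66% lower, 10 of 50 cytosolic ribosomal proteins were higher and 1 lower (median 0.15; 0 higher and 2 lower with median scaling), and 7 of 63 respiratory chain subunits were higher and 1 lower (1 and 1 with median scaling). The translation factors had 0 higher (limma, also 0 under each scaling) and 4 lower, with Gfm1, the translocation factor, at -0.47, Lrpprc at -0.44 and Mrrf, the recycling factor, at -0.40. Between ND liver and ND fat, where 38.2% of all genes were higher in liver and 47.4% lower, translation factors were higher in liver for 12 of 15 and lower for 2 (median 0.84), and cytosolic ribosomal proteins higher for 8 and lower for 38 of 50 (median -0.50), directions that held under each scaling.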

How the data were processed

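RNA from liver and adipose tissue was hybridised to Illumina mouse arrays, 3 per group. The deposited tables hold, per the file headers, each probe's non-normalized signal (intensity) and detection p-value. The authors also deposited log2 matrices, used as an alternative; per the submitters' processing notes, GenomeStudio 2009.2 and R 2.4.1 were used. Here, in R 4.3.3 with limma 3.58.1, signals were background-corrected from the detection p-values and quantile-normalized (neqc, offset 16) within each tissue, or over all 18 arrays for comparisons between tissues. Probes with 1 gene symbol were named through the platform annotation, with symbols updated from RefSeq; the 13 with several symbols and, among the probes of the authors' matrices, the 5825 with none were left out. Probes detected at p under 0.05 on all 3 arrays of a group were kept, and the brightest per gene was tested (lmFit, eBayes, Benjamini-Hochberg over all genes, threshold 0.05).

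Genes named are, per comparison, the up to 6 members with the largest rise and decrease past the threshold whose arrays do not overlap, members with a known role, up to 3 genes per pathway list, and the tissue markers; Mrps35, Mrps30, Mrps9, Mrpl54 and Mrpl33 entered by that rule in some comparisons and are followed in others. Members listed beyond it within a count were chosen after their values were seen. The members, gene lists and tests were chosen with earlier results of these data known. Scripts were tested on simulated data. No slide or scan information was used, so array batches were not tested; with 3 arrays per group, precision is set by how few there are. The alternatives, 1 of them chosen after seeing the data (Mrps18a and Mrps30 counted as large subunit), cover background, normalization, filter, probe choice, moderation, arrays in the fit, the replicate number and each array left out. Promoter windows were read in Python 3.11, and the letters searched for NRF1 were shortened by 1 base after counts with the longer motif, which fewer windows held, had been seen; figures were drawn with matplotlib 3.10.9.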

Additional observations from a re-analysis of the deposited data

Results flagged for a closer look

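The diet response of 15 named members differed between liver and fat by a test of the difference itself (limma, 1 fit over 18 arrays). Of all 71 members 16 (22.5%) were higher and 1 lower for HFD minus ND, where 18.1% of all genes were higher and 13.3% lower. For LU minus HFD 0 were higher (limma, 1 at an unadjusted p of 0.05), where 8.43% of all genes were. In that comparison 6 (8.45%) were lower, near the 7.22% of all genes. For HFD minus ND, the liver minus fat value was 0.56 for Mrps30, 0.54 for Mrps5, 0.54 for Mrpl9, 0.47 for Mrpl49, 0.44 for Mrpl35, 0.44 for Mrps18a, 0.34 for Mrpl10 and 0.20 for Mrps16, with adjusted p from 0.000219 to 0.0375, and -0.27 for Mrpl34 (adjusted p = 0.0192). The first 8 lay between -0.20 and 0.05 in liver and between -0.74 and -0.29 in fat. Mrps16 lost its call in 10 of 18 fits without 1 array, Mrpl49 when the mean of its detected probes was used, and Mrpl34 under median scaling and when only the arrays compared were fitted. For LU minus HFD, the value was -0.40 for Mrps25, -0.38 for Mrpl44, -0.37 for Mrpl53, -0.37 for Mrpl11, -0.28 for Mrpl28 and -0.24 for Mrpl40, with adjusted p from 0.0172 to 0.0475. Mrps25 lost its call in 14 of 18 fits without 1 array, Mrpl40 in 11, Mrpl44 in 7, Mrpl53 in 6, Mrpl28 in 5 and Mrpl11 in 0.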

How the results depend on the processing

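The decreases in HFD fat (26; 20 to 28 without 1 array, 25 with the replicate block), the rises with luteolin in fat under other scalings and the tissue difference without 1 array kept their direction; counts in liver and counts of a few members moved most. For each alternative, counts of members that moved by over 1.5 times and medians (log2) that moved by more than the spread between arrays are given. Same-numbered arrays of different diets deviated together by no more than a correlation of 0.192 in liver and 0.098 in fat. The numbers were therefore not taken to pair samples within a tissue. For liver and fat arrays of the same diet and number the correlation was -0.082 to 0.135. The labels do not say whether such arrays share a mouse, and the main fits over both tissues treated them as independent. The replicate block gave 4 lower for HFD against ND in liver; 2 higher and 3 lower for LU against HFD in liver; 2 higher for LU against ND in liver; 0 higher (limma) for HFD against ND in fat; and 2 higher for LU against ND in fat. Median scaling, which put the median of all genes at 0.12 for HFD against ND in liver, gave there 3 higher, 1 lower and medians of 0.0476 (large) and -0.0023 (small). For LU against HFD in liver it gave 0 higher and medians of -0.0214 and -0.0295. For LU against ND in liver it gave 8 lower and a small-subunit median of 0.0486. In fat it gave 0 higher for HFD against ND, a large-subunit median of 0.0899 for LU against HFD and 2 higher for LU against ND. For liver minus fat it gave, for HFD against ND, 0 lower and medians of 0.1667 and 0.2348; for LU against HFD, medians of -0.1508 and -0.1861; and, on ND, 27 higher, 24 lower and medians of 0.0256 and 0.0571, with Mrpl11 at -0.487 and Mrpl3 at -0.3181, below 0 but above the median of all genes, which it moved to -0.61 from -0.14. It also moved the share of all calls that were higher, in liver to 82.7% from 59.1% (HFD against ND), 29.4% from 49.3% (LU against HFD) and 70.1% from 57.6% (LU against ND), and between tissues to 72.6% from 57.6%, 38.4% from 53.9% and 26.9% from 44.6%. Cyclic loess gave medians of 0.014 (small, LU against HFD in liver), 0.0437 and 0.1122 (LU against HFD in fat), 0.0452 and 0.134 with 2 lower (HFD against ND, liver minus fat), -0.0673 (large, LU against HFD, liver minus fat) and 0.5213 (small, liver against fat on ND). The authors' log2 values gave 3 higher for HFD against ND in liver, medians of 0.0307 (small, LU against HFD in liver), -0.058 (large, LU against ND in fat) and -0.0698 (large, LU against HFD, liver minus fat), and 2 lower for HFD against ND, liver minus fat; each tissue normalized on its own, the stricter detection filter and the mean of detected probes also gave 2 there. That mean gave medians of 0.0131 and 0.0197 for LU against HFD and -0.0369 (small) for LU against ND in liver, and the stricter filter 0.4358 (small) for liver against fat on ND. Without background correction 4 were higher for HFD against ND in liver and 10 lower for LU against HFD, liver minus fat. Without a detection filter 4 were lower for HFD against ND in liver, 3 higher and 2 lower for LU against HFD in liver, 1 higher for HFD against ND in fat, and the medians on ND were 0.3829 and 0.3544. Fits of only the arrays compared gave 3 lower for HFD against ND in liver, 0 higher for HFD against ND in fat, 2 higher for LU against ND in fat and 0 lower for HFD against ND, liver minus fat; trend and robust moderation gave 3 higher and 11 lower for HFD against ND in liver and 3 lower for liver minus fat. Mrps18a and Mrps30 counted as large subunit moved the small-subunit median of LU against HFD in liver to 0.0477 and, within the spread between arrays, the large-subunit median of LU against ND in fat to -0.0392. Leaving out 1 array at a time gave, in liver, 1 to 2 higher and 2 to 6 lower for HFD against ND, 0 to 6 higher, 1 to 7 lower and a small-subunit median of 0.0093 to 0.0435 for LU against HFD, and 2 to 5 higher and a small-subunit median of -0.0058 to 0.0227 for LU against ND; in fat, 0 to 2 higher for HFD against ND, 6 to 19 higher and a large-subunit median of 0.0496 to 0.0913 for LU against HFD, and 1 to 5 higher and medians of -0.0521 to 0.0258 (large) and -0.0575 to 0.0091 (small), of either sign, for LU against ND; for liver minus fat, 1 to 3 lower for HFD against ND and 1 to 7 lower with a small-subunit median of -0.1347 to -0.0966 for LU against HFD; and on ND medians of 0.3647 to 0.4987 and 0.3571 to 0.4009. The cause of these moves was not tested. Members that did not pass the detection filter within a tissue, 5 in liver and 3 in fat, gave no value in the diet comparisons of that tissue.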
